A study of Sus scrofa with 9 samples.

Results

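The collagen genes were taken from the gene table by name and biotype: every protein-coding gene whose symbol in the table reads COL, a number, A and a number. That gave 33 of the 20681 genes, 10 of fibrillar collagens, 7 of basement membrane collagens and 16 of other types. The rule itself uses no expression value, though the collagen genes were chosen with earlier results of these data known. The measurements were RNA-seq of porcine immature Sertoli cells in culture, which in the testis form the seminiferous cords and nurse germ cells, prepared from testes of fetuses at 80 to 90 days of gestation. HS0.5-R36 cells spent 0.5 h at 43 °C, followed by 36 h at 37 °C (3 libraries), HS0.5 cells had the same heat and were collected at 0 h of recovery (3 libraries), and control cells were collected before heat (3 libraries). All groups grew in MEM with 10% serum under 5% CO2 at 37 °C, and had been seeded 6 h before heat was applied. The labels do not say whether replicates were separate cultures or animals, so p-values measure only the spread between these libraries, which may be technical.

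Collagens are the triple-helical proteins of the extracellular matrix. Each molecule is a trimer of alpha chains, and a gene codes for a single chain, so that a given collagen often needs the products of partner genes. Fibrillar collagens form the cross-banded fibrils of connective tissue, type IV collagen forms the sheet of basement membranes, and the remaining types form networks, beaded filaments, transmembrane anchors or coats on fibrils. In the testis, Sertoli cells and the peritubular cells outside them together lay down the basement membrane of the seminiferous cords.

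After 36 h of recovery the collagen genes did not move as a group. In mean FPKM, HS0.5-R36 cells held 2.41 times the control level of COL8A1, 2.23 times that of COL4A5 and 1.35 times that of COL1A2, the most abundant collagen transcript. They held 0.445 times the control level of COL17A1, 0.569 times that of COL1A1 and 0.577 times that of COL6A1. All 6 changes passed the test on the deposited scale, and all but that of COL6A1 also passed under each of 4 other scalings. Their sizes depend on the scaling. Over those 4 the log2 change ran from -0.47 to -0.17 for COL6A1 and from 0.62 to 0.81 for COL1A2. Partner chains of type I and type VI collagen moved by unequal amounts or in opposite directions. At the end of the heat exposure itself no collagen gene passed the test. SERPINH1, the collagen-specific chaperone of the endoplasmic reticulum, fell at 36 h, while the share of called genes among collagen's enzymes, chaperones and partners was not above that of all genes.

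The libraries held 18110565 to 21034021 reads each. Levels are in FPKM, fragments per kilobase of gene length scaled by library size, and differences are of log2(FPKM + 1), which understates changes of weakly expressed genes. The deposited scaling differs between groups: the library size it implies, divided by the reads recovered, is 1.17 to 1.19 in the HS0.5-R36 libraries and 0.902 to 0.973 in the others. Rescaling to a common sum moved the median of all genes by 0.32 (log2) for HS0.5-R36 against control, so calls are given here with the number of scalings, of 4 tried, under which they held. These were FPKM rescaled to a common sum, the same without mitochondrial and the 20 most abundant genes, quantile normalization, and limma's voom on recovered reads. Control replicate 2 stood apart from the other controls with gene length: its shortest 1147 genes were higher by a median of 0.39 and its longest 1147 had a median of -0.28 on the log2 scale. Of the Sertoli list, 8 of 12 markers were measured. SOX9, AMH, WT1 and INHBB were expressed and fell at 36 h, while DMRT1, INHA, NR5A1 and KITLG were at or near 0. Their summed level was 13.2 to 16.2 FPKM in HS0.5-R36, 41.4 to 46.2 FPKM in HS0.5 and 41.3 to 46.0 FPKM in control libraries. Of 14 kidney tubule markers 10 were measured and 9 averaged above 1 FPKM. Their sum was 409 to 419 FPKM in HS0.5-R36, 167 to 187 FPKM in HS0.5 and 196 to 201 FPKM in control libraries. Of 11 fibroblast and myoid markers 10 were measured, with PDGFRA, PDGFRB, MYH11 and FAP at or near 0, and their sum, mostly TAGLN, was 141.5 to 182 FPKM in HS0.5-R36, 669 to 720.3 FPKM in HS0.5 and 671 to 1020 FPKM in control libraries. These marker sums thus differ between HS0.5-R36 and control beside every 36 h result given here, and their part in the collagen changes was not tested. In such bulk samples fewer cells of a type and less RNA per cell cannot be told apart.

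Of the 33 collagen genes, 16 reached 1 FPKM in at least 3 libraries and entered the test, 6 fibrillar, 3 basement membrane and 7 other. COL5A2 passed only through the HS0.5-R36 libraries, where it was high, so it had to differ. It is left out of the counts of calls at 36 h and described by its values. The other 17 were below the filter and are described by their reads. Levels of the 16 spanned more than 3 orders of magnitude. COL1A2 led in every group, at 2069 ± 92.5 FPKM in HS0.5-R36, 1611 ± 33.0 FPKM in HS0.5 and 1533 ± 84.3 FPKM in control (SD, n = 3 each). COL4A2 came next in all groups, well apart from COL1A2 and from the gene below it. COL6A1 and COL5A1 followed, with overlapping libraries in HS0.5-R36 and in HS0.5 and no overlap in control. COL8A1 overlapped COL5A1 and COL18A1 in HS0.5-R36, and lay below both in HS0.5 and in control.

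**Figure D1:**
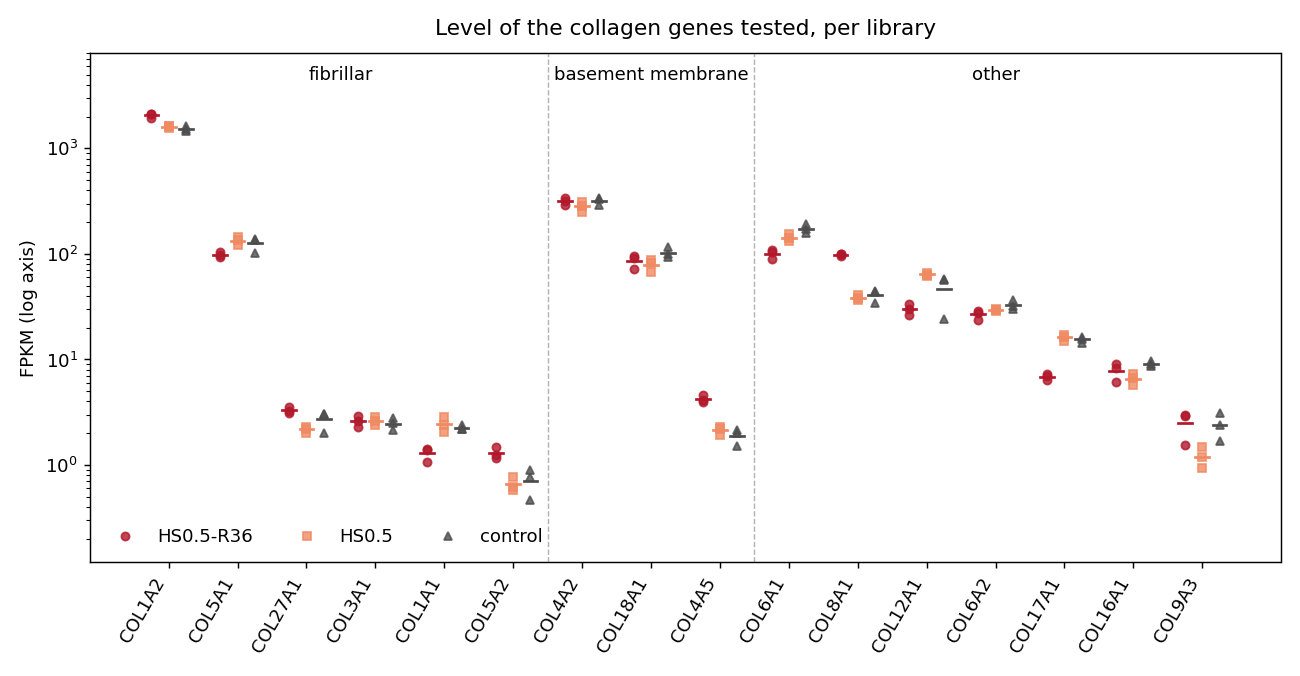
FPKM (log axis) of the 16 collagen genes tested in each of the 9 libraries, by class and in falling order of mean level; symbols are single libraries and bars are group means. COL1A2 averages 2069 FPKM in HS0.5-R36 and 1533 FPKM in control, and COL8A1, COL4A5 and COL17A1 show HS0.5-R36 libraries fully apart from HS0.5 and control libraries.

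The first comparison sets HS0.5-R36 cells against control cells, and asks how they differed after recovery. No cells were kept for 36 h without heat. At 36 h, heat, recovery and longer time in culture therefore cannot be told apart. By limma with Benjamini-Hochberg adjustment over 11479 genes, 8 of 15 collagen genes passed at 0.05, which is 53.3%, against 63.1% of all genes tested. COL1A2, COL4A5 and COL8A1 rose and COL1A1, COL5A1, COL6A1, COL6A2 and COL17A1 fell, where 28.5% of all genes rose and 34.6% fell. The share of collagens called was thus near that of all genes. The median log2 change of the 15 was -0.21, against -0.06 over all genes tested. By class, 1 fibrillar gene rose and 2 fell of 5, 1 basement membrane gene rose of 3, and 1 of the other types rose and 3 fell of 7. The split depends on scaling: with FPKM rescaled to a common sum 4 rose and 3 fell, and with voom on the recovered reads 6 rose and 3 fell. COL1A2, COL4A5 and COL8A1 rose and COL1A1 and COL17A1 fell under all 4 scalings.

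**Figure D2:**
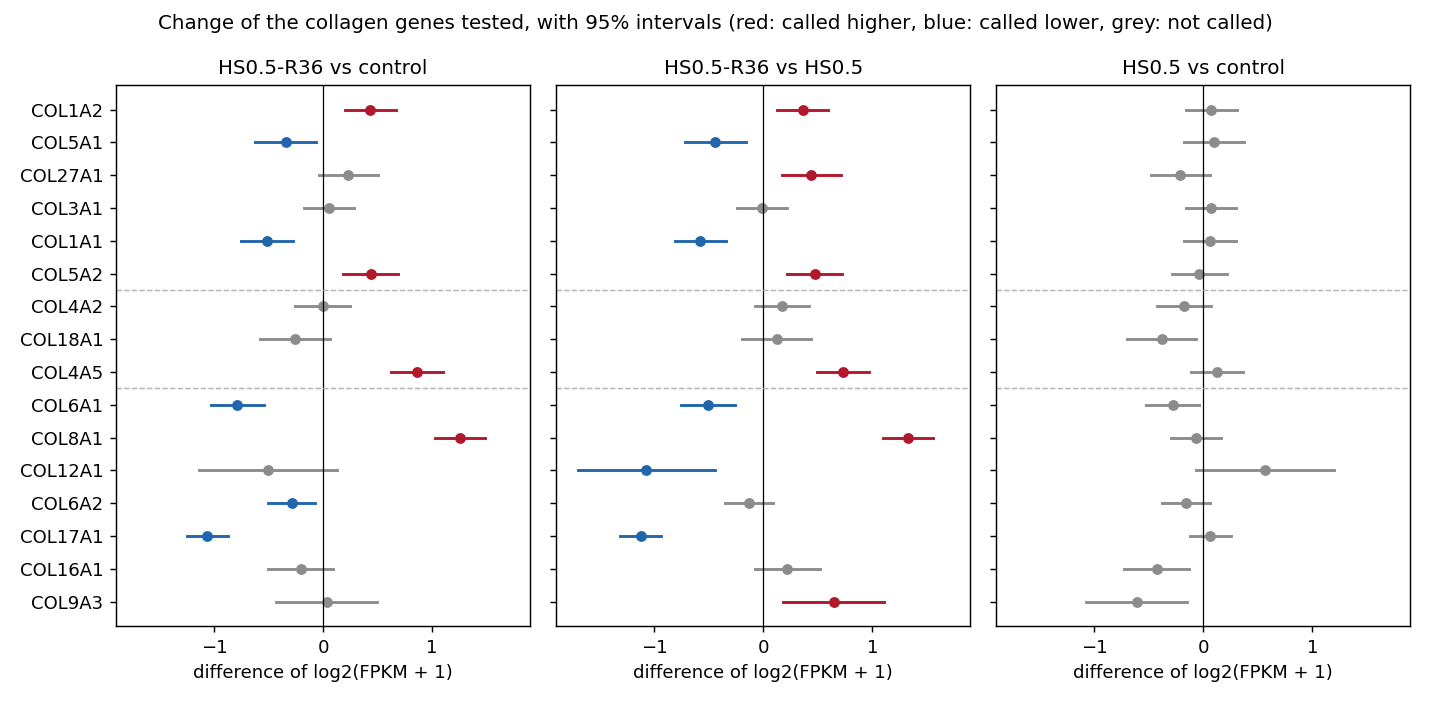
Difference of log2(FPKM + 1) with 95% interval for the 16 collagen genes tested, in 3 comparisons, with dashed lines between fibrillar, basement membrane and other types. COL5A2 is drawn with them, but it entered through the HS0.5-R36 libraries alone, so its colour in the HS0.5-R36 comparisons is no test. COL8A1 at 1.26 and COL17A1 at -1.06 are the outermost called genes for HS0.5-R36 against control, and all intervals for HS0.5 against control are grey.

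HS0.5-R36 against HS0.5 compares the same recovered libraries with cells taken straight after heat, so its values are not independent of the previous ones. In this comparison 10 of 15 collagen genes passed (66.7%), against 63.8% of all genes. COL1A2, COL4A5, COL8A1, COL9A3 and COL27A1 rose, and COL1A1, COL5A1, COL6A1, COL12A1 and COL17A1 fell, where 28.8% of all genes rose and 35.0% fell. The median log2 change was 0.12, against -0.07 over all genes. Rescaled to a common sum, 8 rose and 2 fell, and the rises then included COL4A2, COL16A1 and COL18A1.

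HS0.5 against control asks what the heat exposure itself changed. None of the 16 collagen genes passed, against 3.62% of all genes tested (limma, Benjamini-Hochberg). At an unadjusted p of 0.05, 4 of the 16 passed, against 30.4% of all genes, and voom on the recovered reads also called 0. The lowest adjusted p (limma) was 0.0954, for COL16A1. The 95% intervals of the 16 differences had half-widths of 0.187 to 0.63 on the log2 scale. The largest differences were 0.56 for COL12A1 and -0.61 for COL9A3, neither past the threshold. Library weights in limma, which give the libraries unequal influence, called 8 of the 16, 1 up and 7 down. They also called 5163 of all 11479 genes tested, so the collagen share was near that of all genes. Leaving out control replicate 2 called 1 gene, COL27A1, with a log2 change of -0.35 (adjusted p = 0.0435, limma).

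Type I collagen, the main fibril of skin, bone and tendon, is usually a trimer with more alpha-1 than alpha-2 chains. COL1A2 (chromosome 9, 74173931 to 74210398) codes for the alpha-2 chain. It had 1962, 2129 and 2114 FPKM in HS0.5-R36, 1576, 1615 and 1641 FPKM in HS0.5, and 1626, 1461 and 1514 FPKM in control libraries. Every HS0.5-R36 library lay above every other library, while HS0.5 and control overlapped. The log2 change was 0.43 ± 0.10 (SE) against control (adjusted p = 0.00502, limma) and 0.36 ± 0.10 against HS0.5 (adjusted p = 0.0125, limma). Both calls were lost without a filter on low values, with an adjusted p of 0.0928 against control and 0.153 against HS0.5 (limma). The call against HS0.5 was also lost without HS0.5-R36 replicate 2 (adjusted p = 0.0518) or replicate 3 (adjusted p = 0.0501, limma), with nearly the same change. Both held under all 4 scalings.

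COL1A1 (chromosome 12, 26379090 to 26397003) codes for the alpha-1 chain. It had 1.07, 1.40 and 1.39 FPKM in HS0.5-R36, 2.37, 2.84 and 2.05 FPKM in HS0.5, and 2.20, 2.38 and 2.21 FPKM in control libraries. The HS0.5-R36 libraries were the lowest of all, and HS0.5 and control overlapped. COL1A1 fell at 36 h by 0.52 ± 0.10 against control (adjusted p = 0.00204) and by 0.58 ± 0.10 against HS0.5 (adjusted p = 0.000997, limma).

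The levels of the pair were far apart in all libraries. Per length, COL1A2 exceeded COL1A1 by a factor of 1606 in HS0.5-R36, 665 in HS0.5 and 677 in control. As a log2 ratio of COL1A1 over COL1A2, the values were -10.66 ± 0.16 in HS0.5-R36, -9.39 ± 0.25 in HS0.5 and -9.40 ± 0.13 in control (SD, n = 3 each). The HS0.5-R36 libraries did not overlap the others. COL1A2 alone held 1.27% ± 0.07 of all recovered reads in HS0.5-R36, 0.766% ± 0.003 in HS0.5 and 0.753% ± 0.064 in control (SD, n = 3 each). Neither gene overlaps another gene of the table.

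COL3A1, the chain of the type III homotrimer that is commonly built into type I fibrils, had 2.28, 2.88 and 2.63 FPKM in HS0.5-R36, 2.40, 2.63 and 2.85 FPKM in HS0.5, and 2.77, 2.14 and 2.48 FPKM in control libraries. All groups overlapped. Its log2 difference of 0.06 between HS0.5-R36 and control did not pass (95% interval -0.17 to 0.28, adjusted p = 0.647, limma), nor did that between HS0.5-R36 and HS0.5 (adjusted p = 0.915). Scaling decided the call against control: the difference ran from -0.14 to 0.41 over the 4 scalings and passed under 2, at 0.32 without mitochondrial and the most abundant genes (adjusted p = 0.0436) and 0.41 with voom (adjusted p = 0.0314, limma). As in the case of COL1A1, its level was far below that of COL1A2.

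Type V collagen lies inside type I fibrils and limits their width. COL5A1, its alpha-1 chain, had 94.4, 103 and 96.9 FPKM in HS0.5-R36, 145, 134 and 123 FPKM in HS0.5, and 137, 103 and 138 FPKM in control libraries. HS0.5-R36 lay below HS0.5 throughout, but overlapped control through control replicate 2. The log2 change was -0.34 ± 0.12 against control (adjusted p = 0.0355) and -0.44 ± 0.12 against HS0.5 (adjusted p = 0.0115, limma). Under none of the 4 scalings was either call kept, and the change against control lost its call in 6 of the 9 fits that left out a library (control 1 or 3, HS0.5 2, or any HS0.5-R36 replicate), with adjusted p of 0.0549 to 0.116 (limma). COL5A2, the alpha-2 chain, had 1.17, 1.47 and 1.26 FPKM in HS0.5-R36, 0.620, 0.773 and 0.575 FPKM in HS0.5, and 0.893, 0.462 and 0.764 FPKM in control libraries. The recovered libraries were highest without overlap. Its log2 change was 0.44 against control, and 0.08 under quantile normalization. No test is given, since the gene entered the table of tested genes through these libraries alone. COL5A2 shares 3960 bp with COL3A1 on the opposite strand. The sources used here do not say whether counting used strand, so reads of the shared stretch cannot be assigned.

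The ratio of COL5A1 to COL5A2 was 75.6 in HS0.5-R36, 204 in HS0.5 and 178 in control. As log2 values these were 6.25 ± 0.10, 7.68 ± 0.22 and 7.52 ± 0.27 in HS0.5-R36, HS0.5 and control (SD, n = 3 each). The recovered libraries were lowest without overlap, while HS0.5 and control overlapped. COL27A1, a fibrillar chain best known from cartilage, had 3.28, 3.51 and 3.13 FPKM in HS0.5-R36, 2.19, 2.32 and 2.01 FPKM in HS0.5, and 3.04, 2.01 and 3.05 FPKM in control libraries. It rose against HS0.5 by 0.44 ± 0.12 (adjusted p = 0.00961, limma), a call that held in all 20 alternatives that tested it. Against control its change of 0.23 did not pass (adjusted p = 0.121, limma), and passed under 3 of 4 scalings.

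Type IV collagen forms the network of basement membranes, and its common trimer joins alpha-1 and alpha-2 chains. COL4A2 (chromosome 11, 76997516 to 77161615) had 291, 340.1 and 321 FPKM in HS0.5-R36, 308, 288 and 250.1 FPKM in HS0.5, and 336, 290.5 and 329.6 FPKM in control libraries. The groups overlapped, and the log2 change of -0.01 at 36 h against control did not pass (95% interval -0.26 to 0.24, adjusted p = 0.969, limma). That value turned positive under all 4 scalings, between 0.32 and 0.49, with 3 of these past the threshold in limma. The direction of COL4A2 against control thus depended on scaling. Against HS0.5 its change of 0.17 did not pass (adjusted p = 0.201, limma), and passed under all 4 scalings, at 0.47 to 0.58.

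COL4A1 carries no name in the table and falls outside the naming rule, and was added after its values were seen. The table describes 2 gene models as alpha-1(IV) chain, both on the minus strand of chromosome 11, where the nearer begins 101 bp from the start of COL4A2 in a head-to-head arrangement. One model (76858296 to 76888850, gene length used for FPKM 2651 bp) averaged 486 FPKM in HS0.5-R36, 494 FPKM in HS0.5 and 504 FPKM in control. The other (76894904 to 76997414, gene length used for FPKM 2018 bp) averaged 333, 334 and 336 FPKM in HS0.5-R36, HS0.5 and control. Neither passed in any comparison. Joined by length, their level over that of COL4A2 was 1.32 in HS0.5-R36, 1.51 in HS0.5 and 1.35 in control. HS0.5-R36 and control overlapped, whereas the HS0.5 libraries lay above all of these.

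COL4A5 (X chromosome, 88958825 to 89183374) codes for the alpha-5 chain, which trimerizes with alpha-3 and alpha-4 chains in the glomerular basement membrane and with alpha-6 chains elsewhere. It had 3.92, 4.59 and 4.17 FPKM in HS0.5-R36, 2.19, 2.31 and 1.92 FPKM in HS0.5, and 2.15, 1.51 and 2.03 FPKM in control libraries. The HS0.5-R36 libraries lay above the rest without overlap. The log2 change was 0.86 ± 0.11 against control (adjusted p = 9.84e-05) and 0.73 ± 0.11 against HS0.5 (adjusted p = 0.000237, limma). Both calls held in all 20 alternatives that tested the gene. COL4A6, its neighbour 1422 bp away on the opposite strand, was below the filter but also higher at 36 h, with 38, 36 and 44 reads in HS0.5-R36, 17, 10 and 9 reads in HS0.5, and 12, 15 and 17 reads in control libraries. The ratio of COL4A5 to COL4A6 was 15.4 in HS0.5-R36, 19.5 in HS0.5 and 14.6 in control, with overlapping libraries.

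COL18A1, a heparan sulfate proteoglycan of basement membranes whose tail yields endostatin, had 72.4, 95.2 and 90.9 FPKM in HS0.5-R36, 88.2, 81.9 and 66.9 FPKM in HS0.5, and 101, 115 and 93.2 FPKM in control libraries. HS0.5-R36 overlapped both other groups, while HS0.5 lay below control throughout. On the deposited scale none of its changes passed: -0.26 for HS0.5-R36 against control (adjusted p = 0.137), 0.12 for HS0.5-R36 against HS0.5 (adjusted p = 0.466) and -0.38 for HS0.5 against control (adjusted p = 0.124, limma). The value at 36 h against control turned positive under all 4 scalings, between 0.06 and 0.33. That against HS0.5 was called under all 4, between 0.42 and 0.64.

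Type VI collagen forms beaded filaments from alpha-1, alpha-2 and a further, longer chain. COL6A3 was not analysed here. COL6A1 (chromosome 13, 208295240 to 208313127) had 89.5, 108 and 104 FPKM in HS0.5-R36, 155, 142 and 132 FPKM in HS0.5, and 173, 191 and 158 FPKM in control libraries. No groups overlapped, with HS0.5-R36 lowest and control highest. The log2 change was -0.79 ± 0.11 against control (adjusted p = 0.000195) and -0.51 ± 0.11 against HS0.5 (adjusted p = 0.00266, limma). Against control it was negative under all 4 scalings and lost its call only under quantile normalization (adjusted p = 0.142). Against HS0.5 none of the 4 scalings kept the call.

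COL6A2, which the table places on an unplaced scaffold, had 23.8, 28.9 and 27.6 FPKM in HS0.5-R36, 30.1, 29.2 and 28.6 FPKM in HS0.5, and 32.2, 36.3 and 30.2 FPKM in control libraries. HS0.5-R36 lay below control throughout and overlapped HS0.5. Its log2 change of -0.29 ± 0.10 against control passed (adjusted p = 0.0255, limma) but turned to between 0.02 and 0.11 under the 4 scalings, and was lost without HS0.5-R36 replicate 1 (adjusted p = 0.088) or control replicate 1 (adjusted p = 0.0504). Against HS0.5 its change of -0.13 did not pass (adjusted p = 0.263, limma) and turned to between 0.16 and 0.23 under the 4 scalings. A constant factor per library cancels in the ratio between the partners, but quantile normalization applies no such factor and can change the ratio. COL6A1 over COL6A2 was 3.75 in HS0.5-R36, 4.88 in HS0.5 and 5.29 in control, or 1.91 ± 0.01, 2.28 ± 0.07 and 2.40 ± 0.02 on the log2 scale in HS0.5-R36, HS0.5 and control (SD, n = 3 each). No groups overlapped.

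A gene described in the table as alpha-4(VI) chain, ENSSSCG00000038215, has no name there and was likewise added after its values were seen. It had 21.5, 22.8 and 22.1 FPKM in HS0.5-R36, 9.81, 9.34 and 10.1 FPKM in HS0.5, and 10.1, 7.37 and 10.5 FPKM in control libraries. The recovered libraries were highest without overlap, and it rose by 1.18 ± 0.12 against control (adjusted p = 2.52e-05) and by 1.11 ± 0.12 against HS0.5 (adjusted p = 3.29e-05, limma). At 36 h the alpha-4(VI) gene thus rose while COL6A1 fell.

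**Figure D3:**
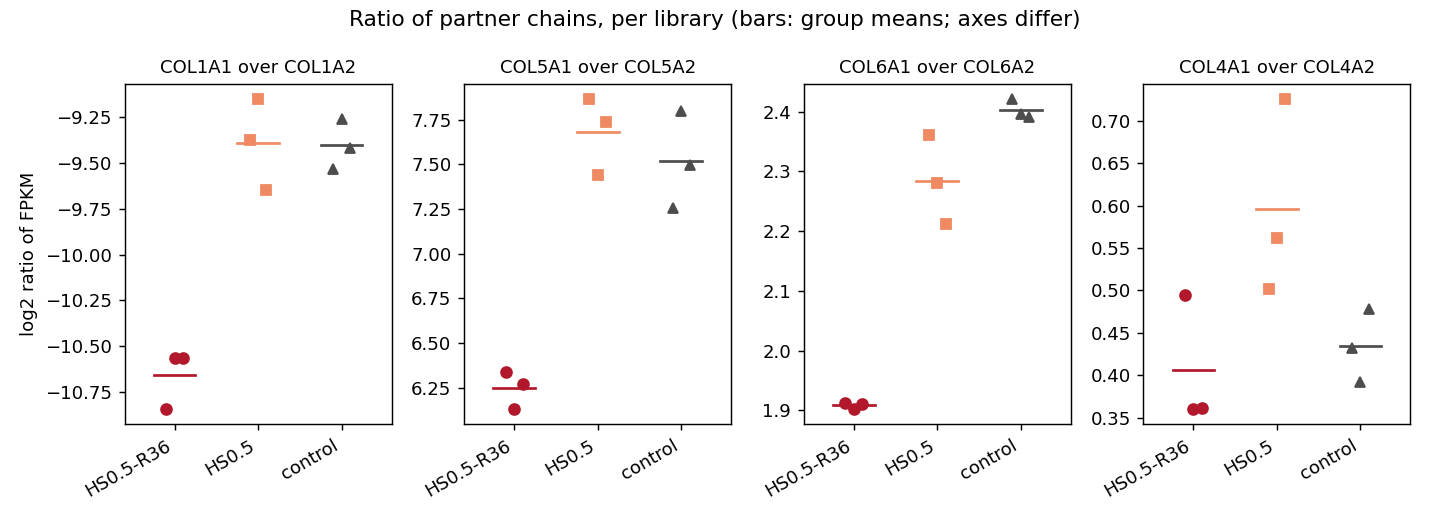
Log2 ratio of FPKM of partner chains in each library, with bars for group means and a separate axis for each pair; COL4A1 is its 2 gene models joined by length. The HS0.5-R36 libraries lie apart from HS0.5 and control for type I, type V and type VI chains, and overlap control for COL4A1 over COL4A2.

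COL8A1 (chromosome 13, 159216138 to 159374504), a short-chain collagen that forms hexagonal networks under endothelium and in the cornea, gave the largest rise among the collagens tested. It had 95.01, 99.97 and 99.3 FPKM in HS0.5-R36, 40.8, 38.4 and 36.6 FPKM in HS0.5, and 43.4, 34.5 and 44.2 FPKM in control libraries. The recovered libraries lay far above the rest, which overlapped each other. The log2 change was 1.26 ± 0.10 against control (adjusted p = 8.29e-06) and 1.32 ± 0.10 against HS0.5 (adjusted p = 5.13e-06, limma). Both calls held in all 21 alternatives. Its partner COL8A2 was below the filter, with 37, 58 and 45 reads in HS0.5-R36, 16, 11 and 4 reads in HS0.5, and 9, 13 and 10 reads in control libraries. The ratio of COL8A1 to COL8A2 was 194 in HS0.5-R36, 262 in HS0.5 and 279 in control, with overlapping libraries.

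COL17A1 (chromosome 14, 114959408 to 115064783) is a transmembrane collagen of hemidesmosomes, the junctions that fix epithelial cells to the basement membrane. It had 6.43, 7.30 and 6.92 FPKM in HS0.5-R36, 17.2, 16.4 and 15.03 FPKM in HS0.5, and 16.3, 14.4 and 15.7 FPKM in control libraries. The recovered libraries lay below the rest without overlap. COL17A1 fell by 1.06 ± 0.08 against control (adjusted p = 6.87e-06) and by 1.13 ± 0.08 against HS0.5 (adjusted p = 4.06e-06, limma), in all 21 alternatives. Among the epithelial markers 7 of 8 were measured, all above 1 FPKM, with sums of 558 to 690.4 FPKM in HS0.5-R36, 754 to 772 FPKM in HS0.5 and 732 to 1142 FPKM in control libraries. Of these 5 fell at 36 h against control (71.4% called, against 63.1% of all genes called and 34.6% of all genes lower), 4 with FPKM rescaled to a common sum. Their part in the COL17A1 result was not tested.

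The 3 fibril-associated collagens tested, whose kind coats fibrils and carries interrupted helices, gave no call at 36 h against control. COL12A1 has the greatest gene length used for FPKM among the 16, 12087 bp, which is shorter than its span on the chromosome. It had 33.3, 30.4 and 26.6 FPKM in HS0.5-R36, 62.3, 63.5 and 66.6 FPKM in HS0.5, and 56.8, 24.2 and 57.5 FPKM in control libraries. HS0.5-R36 lay below all libraries but control replicate 2. Its change was -0.51 ± 0.28 against control (adjusted p = 0.141), and -0.91 without control replicate 2 (adjusted p = 2.8e-05, limma). It fell against HS0.5 by 1.07 ± 0.28 (adjusted p = 0.00784, limma), negative under all 4 scalings and called under 1 of them.

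COL16A1 had 6.18, 9.03 and 8.28 FPKM in HS0.5-R36, 7.25, 6.61 and 5.71 FPKM in HS0.5, and 8.62, 9.60 and 9.05 FPKM in control libraries, and passed in no comparison on the deposited scale. Its change of 0.22 against HS0.5 (adjusted p = 0.166) was called under 3 of 4 scalings, with values of 0.25 to 0.62 over the 4. It was also called with library weights (0.32, adjusted p = 0.000905) and without HS0.5-R36 replicate 1 (0.36, adjusted p = 0.0178, limma). HS0.5 lay below control throughout, and HS0.5-R36 overlapped both. COL9A3 had 1.55, 2.93 and 3.01 FPKM in HS0.5-R36, 1.18, 1.49 and 0.934 FPKM in HS0.5, and 2.41, 3.08 and 1.70 FPKM in control libraries. HS0.5 was lowest without overlap. COL9A3 rose at 36 h against HS0.5 by 0.65 ± 0.20 (adjusted p = 0.02, limma), a call lost in 4 of the 9 fits that left out a library, namely HS0.5 replicates 1 and 3 and HS0.5-R36 replicates 2 and 3 (adjusted p of 0.0504 to 0.0741). It held under 3 of 4 scalings and was lost with quantile normalization (0.41, adjusted p = 0.133, limma). The whole of COL9A3, 18416 bp, lies within GID8 on the same strand, which averaged 16.2 FPKM, so its reads are uncertain.

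The 17 collagen genes below the filter were read by their recovered reads, summed over 3 libraries a group, with exact binomial intervals for counting error only. Ratios of reads are per recovered read, whereas the limma calls on these genes used deposited FPKM alone, and these scales differ. For HS0.5-R36 against control the median log2 change of all genes tested was 0.25 with voom on recovered reads, against -0.06 on deposited FPKM. Without a filter, limma called 8 of the 17 higher and 1 lower in HS0.5-R36 against control, where 15.9% of the 9202 genes below the filter were called higher and 2.48% lower. Against HS0.5 it called 8 higher and 1 lower (16.1% and 3.13% of these genes), with COL28A1 in place of COL11A1. Between HS0.5 and control it called 0, and 0 at an unadjusted p of 0.05, where 0.239% of these genes rose and 0.120% fell. No other tool was run on these genes.

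COL15A1, a basement membrane proteoglycan related to COL18A1, was the one that fell. It had 23, 32 and 28 reads in HS0.5-R36, 126, 116 and 129 reads in HS0.5, and 134, 114 and 111 reads in control libraries. The ratio of HS0.5-R36 to control was 0.227 (95% interval 0.177 to 0.29), and the recovered libraries lay apart from all others. Its no-filter log2 change was -0.70 (adjusted p = 3.76e-05, limma).

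COL2A1, the cartilage fibril chain, had 85 reads in HS0.5-R36 against 14 in control, a ratio of 5.97 (3.37 to 11.4). COL11A1, which shares fibrils with it, had 340 against 150, a ratio of 2.23 (1.84 to 2.72). COL8A2 had 140 reads against 32, a ratio of 4.3 (2.91 to 6.53). Of all these genes, COL11A1 and COL15A1 were the best covered.

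Among basement membrane chains, COL4A6 had 118 reads in HS0.5-R36 against 44 in control, a ratio of 2.64 (1.85 to 3.82), and COL4A3, a partner of COL4A5, had 81 against 19, a ratio of 4.19 (2.52 to 7.32). COL4A4, the remaining partner, had 5 reads in HS0.5-R36 against 3 in control, a ratio of 1.64 (0.319 to 10.6), and no difference was detectable at this depth. COL19A1, a minor fibril-associated chain, had 76 against 12, a ratio of 6.23 (3.37 to 12.6). COL14A1 had 51 against 5, a ratio of 10 (4.03 to 32.2), but shares 152098 bp with DEPTOR on the same strand, at 2.84 FPKM, so its reads are uncertain. COL5A3, a further type V chain, had 12 against 0 reads, and the interval of the ratio begins at 2.73. The HS0.5-R36 libraries of COL2A1, COL11A1, COL8A2, COL4A6, COL4A3, COL19A1, COL14A1 and COL5A3 all lay above every control library, and these are the 8 that limma called higher.

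The rest were not called. COL23A1 had 112 reads in HS0.5-R36 against 66 in control, COL11A2 50 against 24, COL28A1 53 against 21 and COL10A1 12 against 19, with overlapping libraries for each. COL26A1, COL9A1 and COL22A1 had at most 3 reads in any group. COL10A1 lies within NT5DC1 on the opposite strand, and COL23A1 overlaps PHYKPL.

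**Figure D4:**
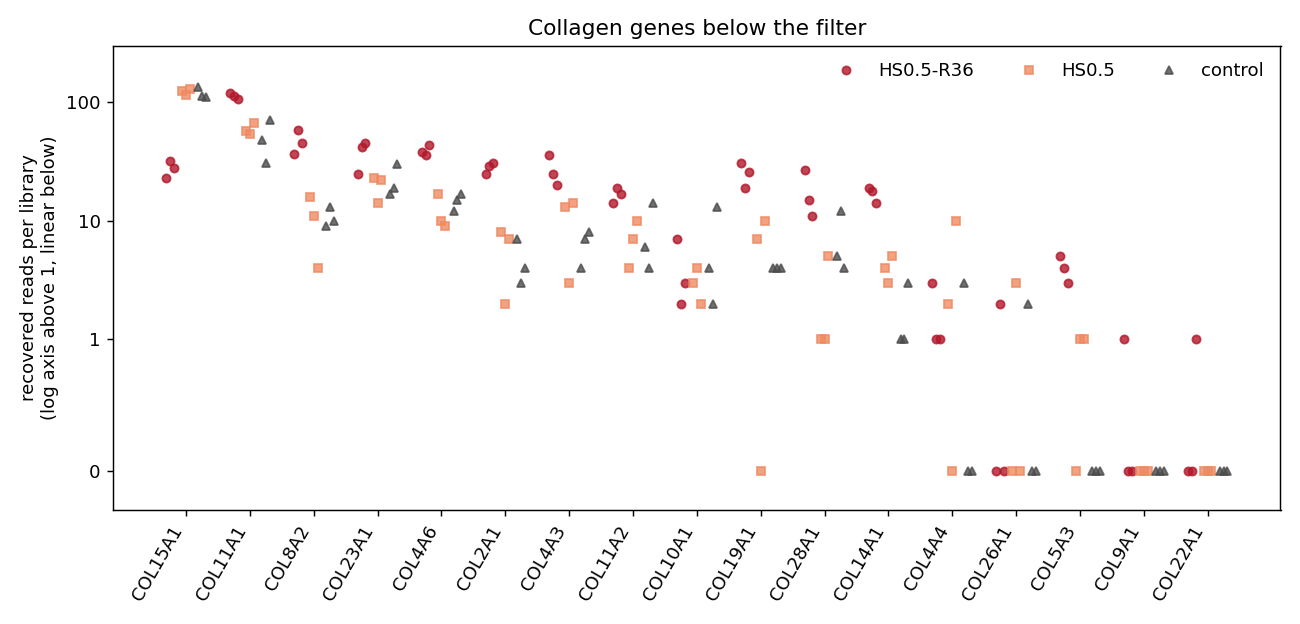
Recovered reads per library (log axis above 1, linear below) of the 17 collagen genes below the filter, in falling order of mean level; symbols are single libraries. The HS0.5-R36 libraries of COL15A1 lie below all others, and those of COL11A1, COL8A2, COL4A6, COL2A1, COL4A3, COL19A1, COL14A1 and COL5A3 lie above all control libraries.

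Summed over all 33 genes, collagen held 1.91% ± 0.12 of the recovered reads in HS0.5-R36, 1.29% ± 0.05 in HS0.5 and 1.33% ± 0.12 in control (SD, n = 3 each). In summed FPKM this was 2858 ± 148 in HS0.5-R36, 2416 ± 33.9 in HS0.5 and 2414 ± 126 in control. COL1A2 made up 72.4% ± 0.7 of the collagen FPKM in HS0.5-R36, 66.7% ± 2.3 in HS0.5 and 63.5% ± 0.5 in control. Without COL1A2 the sum was 789.8 ± 57.5 FPKM in HS0.5-R36, 806 ± 65.2 FPKM in HS0.5 and 880.4 ± 44.4 FPKM in control, and the recovered libraries then overlapped control. As a share of recovered reads the order turned: the same genes held 0.638% ± 0.051 in HS0.5-R36, 0.521% ± 0.049 in HS0.5 and 0.573% ± 0.060 in control, again with overlap between HS0.5-R36 and control. By class, the basement membrane sum was 408 ± 36.7 FPKM in HS0.5-R36, 364 ± 40.5 FPKM in HS0.5 and 425 ± 16.0 FPKM in control, with overlap between HS0.5-R36 and control. Its share of reads was 0.354% ± 0.037 in HS0.5-R36, 0.245% ± 0.032 in HS0.5 and 0.299% ± 0.017 in control, with HS0.5-R36 highest and no overlap with control, by 0.314% in its lowest library against 0.313% in the highest control. Other types summed to 274 ± 15.8, 299 ± 14.1 and 321 ± 10.1 FPKM in HS0.5-R36, HS0.5 and control, and held 0.180% ± 0.009, 0.169% ± 0.007 and 0.170% ± 0.024 of reads in these groups. The direction between HS0.5-R36 and control thus depended on the measure for each of these 3 sums.

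Collagen chains are hydroxylated and glycosylated in the endoplasmic reticulum, folded with dedicated chaperones, exported in enlarged carriers, trimmed outside the cell and crosslinked. Of 84 listed genes of these steps and of collagen's partners and receptors, 76 were measured and 59 tested. Between HS0.5-R36 and control 8 rose and 25 fell (55.9% called, against 63.1% of all genes tested, with 28.5% of all genes higher and 34.6% lower). The median log2 change was -0.23, against -0.06 over all genes. Between HS0.5-R36 and HS0.5 8 rose and 29 fell (62.7% called, against 63.8% of all genes), with a median of -0.37 against -0.07 over all genes. The shares called were thus not above those of all genes. They include BGN and TNC, which passed the filter only through HS0.5 and control libraries and so had to differ at 36 h. The split of 8 to 25 depends on scaling: rescaled to a common sum 17 rose and 17 fell, and with voom 20 rose and 19 fell. Of the 25 that fell 17 did so under all 4 scalings, as did all 8 that rose. Between HS0.5 and control 0 of 59 passed in limma, 12 at an unadjusted p of 0.05, and 0 with voom.

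Of 13 hydroxylation and glycosylation genes tested, 8 fell and 1 rose at 36 h against control (6 and 3 with a common sum). That is 69.2% called, near the 63.1% of all genes, with a median log2 change of -0.54 against -0.06 over all genes. P3H1 and P3H2 are prolyl 3-hydroxylases. P3H1 fell by 1.00 (log2), with 17.0 ± 0.8 FPKM in HS0.5-R36 against 35.0 ± 3.2 FPKM in control (adjusted p = 8.43e-06, limma). P3H2, which acts on type IV collagen, fell by 0.98, with 40.5 ± 2.0 FPKM against 81.1 ± 1.3 FPKM (adjusted p = 4.35e-06). PPIB, the cyclophilin that forms a complex with P3H1, fell by 0.98, and COLGALT1, the galactosyltransferase of hydroxylysines, fell by 0.86. CRTAP, another member of the P3H1 complex, rose by 0.27 (adjusted p = 0.00765, limma). These calls held under all 4 scalings. P4HB, the shared subunit of prolyl 4-hydroxylase, had 325 ± 52.1 FPKM in HS0.5-R36 against 411 ± 58.0 FPKM in control and did not pass (-0.34, adjusted p = 0.066).

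Among 13 chaperone and export genes 5 fell and 3 rose at 36 h against control (3 fell and 6 rose with a common sum). The share called was 61.5%, against 63.1% of all genes, and the median was -0.18, against -0.06. SERPINH1, also called HSP47, had 170.3, 198 and 188 FPKM in HS0.5-R36, 365, 321 and 350.0 FPKM in HS0.5, and 339.8, 418 and 307 FPKM in control libraries. The recovered libraries lay below all others, and HS0.5 and control overlapped. SERPINH1 fell by 0.93 ± 0.12 against control (adjusted p = 0.000173, limma) and by 0.90 against HS0.5, whereas its change of -0.03 at the end of heat did not pass (adjusted p = 0.881). CREB3L1, a transcription factor that drives Col1a1 in mouse bone, fell by 1.65, with 20.4 ± 0.7 FPKM in HS0.5-R36 against 65.9 ± 0.9 FPKM in control (adjusted p = 5.17e-07). KDELR2, a retrieval receptor for chaperones, fell by 0.87. CREB3L2, a relative of CREB3L1, rose by 0.66 and MIA3, which loads collagen into export carriers, rose by 0.58 (adjusted p = 0.00209 and 0.00052, limma). The calls of these genes held under all 4 scalings.

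Outside the cell, 4 genes of propeptide removal and crosslinking fell and 1 rose at 36 h against control, of 8 tested (2 and 2 with a common sum). The share called was 62.5%, against 63.1% of all genes, with a median of -0.29 against -0.06. LOXL1, a lysyl oxidase, rose by 1.19, with 42.2 ± 4.4 FPKM in HS0.5-R36 against 17.9 ± 0.8 FPKM in control (adjusted p = 2.09e-05, limma). LOXL4, of the same family, fell by 0.79, and BMP1, which removes the carboxyl propeptide, fell by 0.76, all under each of the 4 scalings. ADAMTS2, which removes the amino propeptide, fell by 0.50 and kept the call under 1 scaling. LOX had 62.9 ± 7.1 FPKM in HS0.5-R36 against 53.4 ± 17.2 FPKM in control and did not pass (0.28, adjusted p = 0.285). PCOLCE, which enhances BMP1, rose against HS0.5 by 0.55 (adjusted p = 0.0256, limma), a call lost when HS0.5 replicate 1 or any HS0.5-R36 replicate was left out (adjusted p of 0.0509 to 0.0945).

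Of 12 laminin and basement membrane genes, 3 fell and 2 rose at 36 h against control (2 fell and 4 rose with a common sum), 41.7% against 63.1% of all genes called, with a median of -0.11 against -0.06. LAMB3, a laminin beta chain, fell by 1.38 (adjusted p = 1.51e-05, limma). LAMA4 rose by 0.59. LAMA1 fell by 0.72, a call kept under 2 of 4 scalings. Among 6 fibril organisers 4 fell (3 with a common sum), 66.7% against 63.1% of all genes called, with a median of -0.92 against -0.06. These counts include BGN, a small proteoglycan that binds fibrils, and TNC. Both passed the filter only through HS0.5 and control libraries, where they were high, so no test is given for them at 36 h. BGN had 0.876 ± 0.046 FPKM in HS0.5-R36 against 3.99 ± 0.73 FPKM in control. TNC had 0.230 ± 0.021 FPKM in HS0.5-R36 against 2.26 ± 0.47 FPKM in control. THBS1 fell by 1.37 under all 4 scalings, whereas FMOD fell by 0.29 on the deposited scale and turned positive under all 4. FN1, the fibronectin gene, fell against HS0.5 by 1.00 (adjusted p = 0.00255, limma). Of 7 receptors 1 fell and 1 rose (1 and 2 with a common sum), 28.6% against 63.1% of all genes called, with a median of 0.10 against -0.06. ITGB1, the shared beta subunit of collagen-binding integrins, fell by 1.37, with 79.5 ± 4.1 FPKM in HS0.5-R36 against 208.7 ± 29.4 FPKM in control (adjusted p = 8.63e-06, limma). ITGA1, one of its alpha partners, rose by 1.29 (adjusted p = 0.0108), and by 0.76 without control replicate 2, which stood at 7.17 FPKM against 23.5 and 23.0 FPKM in the other controls. ITGA2, another alpha partner, fell against HS0.5 by 1.10 (adjusted p = 0.0255, limma), a call lost when any HS0.5 replicate was left out, or HS0.5-R36 replicate 2 or 3 (adjusted p of 0.0535 to 0.0705) and under all 4 scalings.

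**Figure D5:**
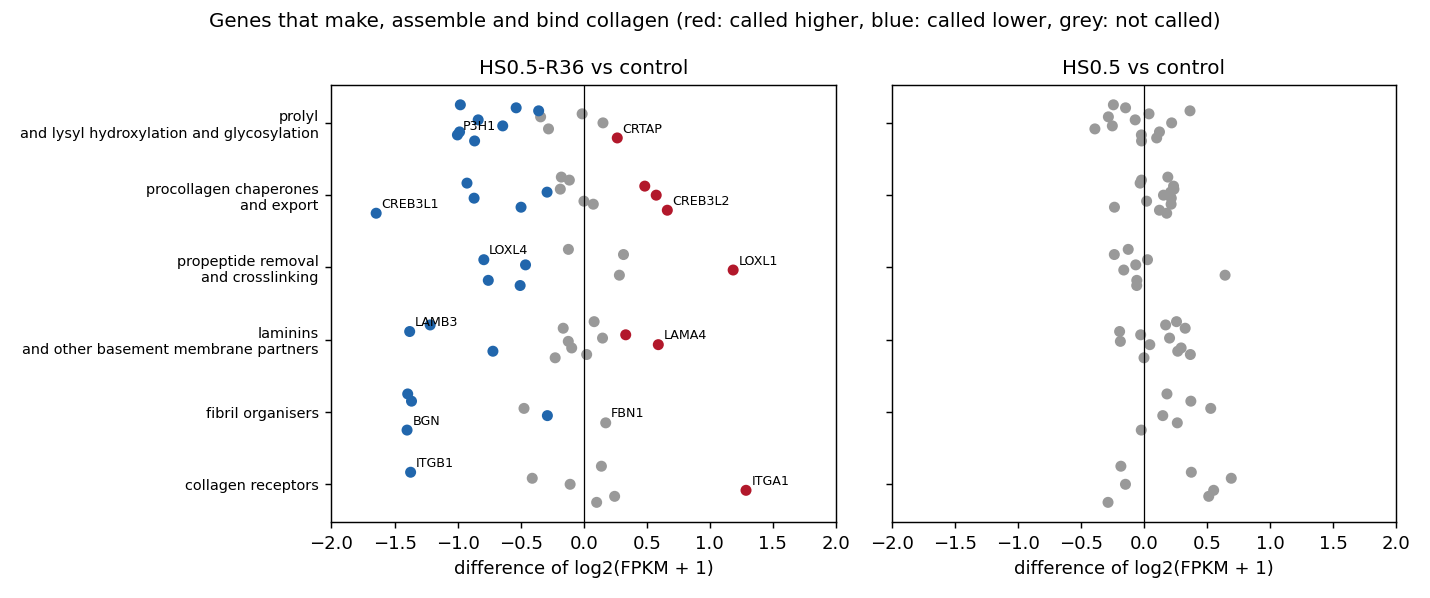
Difference of log2(FPKM + 1) of the 59 tested genes that make, assemble, accompany and bind collagen, for HS0.5-R36 against control and HS0.5 against control, by list; red and blue points were called higher and lower by limma. BGN and TNC entered through the HS0.5 and control libraries alone, so their colour on the left panel is no test. CREB3L1 at -1.65 and ITGA1 at 1.29 are the outermost on the left panel, and no point is called on the right.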

How the data were processed

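The deposited table holds FPKM per gene for 9 libraries and, per the file headers, a gene length in bp, a symbol, a biotype and coordinates. Per the submitters' processing notes, reads were aligned with HISAT2 2.0.5. The counting tool, the use of strand, the genome build and the scaling are not given in the sources used here. Coordinates are those of the table. They matched the RefSeq table of Sscrofa11.1 for 12087 of 12229 shared symbols (98.8%).

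FPKM times length gave whole multiples of a constant for 100% of values (tolerance 1e-06), from which reads were recovered. At these depths 1 read in 1 kb is worth 0.0413 to 0.0576 FPKM. Genes with FPKM of at least 1 in at least 3 of 9 libraries (11479) were fitted as log2(FPKM + 1) with limma 3.58.1 in R 4.3.3, with 1 mean per group, empirical Bayes moderation with an intensity trend, two-sided tests and Benjamini-Hochberg adjustment over all 11479 at 0.05. The test was checked on simulated reads with the same setting of spread for all genes. Those held neither the scaling difference between groups nor the length trend of control replicate 2, so the check covers neither. Read ratios carry exact binomial intervals at 95% on library totals. As no molecular identifiers are described, they cover only the error of counting.

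The collagen genes, the partner lists and the markers were chosen with earlier results of these data known. Every collagen gene is accounted for. From each partner list up to 4 passing genes of largest change per comparison were named, with SERPINH1, P4HB, LOX and ITGB1 always; a gene the rule also picked is not reported here by name, though the list counts include it. CRTAP and MIA3 were named after their values were seen. The COL4A1 models, the alpha-4(VI) gene, and the ratios COL4A1 to COL4A2 and COL4A5 to COL4A6 were added after values were seen. No sequences are printed. Alternatives covered the pseudocount, filters, 4 scalings, a length trend, variance models, a replicate block and the omission of each library in turn.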

Additional observations from a re-analysis of the deposited data

How the results depend on the processing

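Of 990 refits of single collagen genes, 909 kept their side of the threshold, 34 lost a call, 33 gained one and 14 changed sign with a call on one side. Changes of sign with no call on either side were counted among the 909. The 14 were all under other scalings. For HS0.5-R36 against control, COL4A2 turned to 0.37 without mitochondrial and the 20 most abundant genes, 0.49 with quantile normalization and 0.32 with voom; COL5A1 to 0.0029 with a common sum, 0.031 without those genes and 0.22 with quantiles; COL6A2 to 0.049 with a common sum, 0.075 without those genes, 0.11 with quantiles and 0.022 with voom; and COL18A1 to 0.33 with quantiles. Against HS0.5, quantile normalization gave 0.012 for COL6A1, 0.088 for COL5A1 and 0.22 for COL6A2. The cause was not tested.

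For HS0.5 against control the count over all genes was 415, and became 193 without a filter, 243 with a filter of 5 FPKM, 191 with a common sum, 240 without the most abundant genes, 5163 with library weights, and 116 in a fit of those groups alone, and ran from 88 to 457 when single libraries were left out. Library weights called 8 collagen genes and 22 partner genes there, against 0 for each, and leaving out single libraries gave 0 or 1 collagen gene. Counts of collagen genes here include COL5A2. With no filter 16 of 33 collagen genes were called for HS0.5-R36 against control and 19 against HS0.5, since more were tested. The counts over all 20681 genes were then 8443 and 8595. With a filter of 5 FPKM 6 collagen genes were called for HS0.5-R36 against HS0.5, since fewer were tested, and 5267 genes in all.

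Replicate numbers showed no clear pairing of the libraries. Correlations of deviations between libraries of the same number lay between -0.429 and 0.265, and 2 of 9 libraries were closest to one of their own number. With deviations from means of only 3 libraries a group, these values cannot decide whether libraries were paired. With the replicate number as a block, 7039 of 11479 genes were called for HS0.5-R36 against control, 7135 against HS0.5 and 221 for HS0.5 against control. The collagen counts, of 16 with COL5A2 included, were 8 for HS0.5-R36 against control, 11 against HS0.5 and 0 for HS0.5 against control.

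Below the filter, group totals of 0 to 371 reads limit what the ratios can show.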
